A study of Mus musculus with 8 samples.

Results

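Resting Atoh1 precursor tumour cells are medulloblastoma cells that carry RNA of Atoh1, the bHLH transcription factor that defines granule neuron precursors of the cerebellum, with few genes of DNA replication, of mitosis or of mature neurons. A cell qualified with at least 1 Atoh1 UMI (a unique molecular identifier, 1 counted RNA molecule), at most 1 UMI of the astrocyte filament gene Gfap, none of the adhesion gene Cntn2, at most 2 detected genes of 10 for G2/M and of 10 for S phase, and at most 1 of 6 neuron genes. The G2/M genes were Top2a, Ube2c, Cdk1, Ccnb1, Hmmr, Tpx2, Plk1, Aurkb, Nusap1 and Prc1, the S phase genes Mcm2, Mcm3, Mcm5, Mcm6, Gins2, Cdc6, Hells, Ung, Cdt1 and Ccne2, and the neuron genes Neurod2, Grin2b, Rbfox3, Snap25, Gap43 and Syt1. The rule held in 793 of 16933 cells with at least 500 genes and at most 10% mitochondrial UMIs. Of these, 424 lay among 7839 cells of the relapsed library and 369 among 9094 of the primary library.

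Both libraries are droplet single-cell RNA-seq of medulloblastoma from Patched 1 deficient mice, a genotype that relapsed and primary tumours share, and each condition has 1 library. The relapsed tumour was taken at 3 weeks per its title and source label, although its description names a primary tumour, and title and source were followed. Tumours were dissociated with papain, sorted by flow cytometry and held in NB-B27 medium, without a named sort marker, age, sex or treatment. The other samples of the series, sorted astrocytes, hold no single cells and are not analysed here. With 1 library per condition no difference was tested, cells are not replicates, and every interval given covers counting error only.

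Granule neuron precursors divide in the outer layer of the young cerebellum in response to Sonic hedgehog. Patched 1 holds the signal transducer Smoothened off, and its loss leaves Gli transcription factors active and drives Ccnd1, Mycn and continued division. Atoh1 keeps precursors responsive to the signal and is shut down when they leave the cycle, switch on Neurod1 and extend axons.

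The cells carried the granule lineage programme in both libraries. Of 8 granule genes outside the rule (Barhl1, Zic1, Zic2, Pax6, Gli1, Ptch1, Mfap4 and Sfrp1), at least 3 were detected in 95.8% of relapsed cells (95% exact binomial interval 93.4 to 97.5) and 89.7% of primary cells (86.1 to 92.6), against 99.1% and 97.0% of cycling Atoh1 cells. Atoh1 also appeared in cells that should lack it. It was found in 2 of 23 relapsed and 12 of 127 primary cells with at least 100 microglial UMIs (8.70% and 9.45%, median depths 12318 and 9177 UMIs), and in 24 of 121 relapsed cells with at least 100 pituitary hormone UMIs (19.8%, median 12238). Its summed level in those 3 sets was 22.1, 17.1 and 21.5 CPM (UMIs scaled to a class and library total of 1000000), against 458 and 398 CPM in the relapsed and primary resting Atoh1 cells, which the rule selected for it.

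A few of the cells carried large amounts of another cell type's RNA. At least 10 UMIs of a pituitary, microglial, macrophage, oligodendrocyte or endothelial list were found in 5 relapsed and 7 primary cells. With each cell counted under 1 list only, the relapsed cells were 4 pituitary and 1 microglial. The primary cells were 3 oligodendrocyte, 2 macrophage, 1 microglial and 1 endothelial. Taken list by list, 3 primary cells held at least 10 microglial UMIs, and 3 primary and 1 relapsed cell at least 10 macrophage UMIs. Single relapsed cells held 13574, 8436 and 902 UMIs of the pituitary hormone gene Prl, and another held 7052 of Gh. These 12 cells were kept, and values without them are given for each named gene whose 2-fold call or direction they change. Leaving them out moved the log2 ratio, relapsed over primary, from 0.31 to −4.50 for Lyz2 and from 0.089 to −0.15 for Ctsb. It moved from −0.57 to −1.77 for Apoe, from −1.76 to −0.45 for Mbp and from 0.91 to 1.03 for Hes1. Values for the others stand with each gene below. The astrocyte and oligodendrocyte precursor lists were not used to find such cells. At least 10 UMIs of the astrocyte list were held by 5 relapsed and 5 primary cells, and of the oligodendrocyte precursor list by 52 and 11. C1ql1 held 1887 of the 2348 oligodendrocyte precursor UMIs in relapsed and 1052 of 1384 in primary cells. At least 10 UMIs of that list were also held by 1441 of 3847 relapsed and 177 of 2534 primary cycling Atoh1 cells. Sex-linked RNA also divided the libraries. Y-linked genes were detected in 296 of 424 relapsed cells and 0 of 369 primary cells, and Xist in 9 relapsed and 293 primary cells, all 5 relapsed cells with foreign RNA among the 9. Sex therefore cannot be told apart from relapse, and its part in the differences was not tested. Of the marker lists of other types, astrocyte genes summed to 291 CPM in relapsed and 280 CPM in primary cells, with 2 of 10 at 0 in each. Oligodendrocyte precursor genes summed to 1003 and 823 CPM, of which C1ql1 was the most abundant, and T cell genes to 0 and 0.595 CPM. Single cells held much of the other sums. In relapsed cells, 1 cell held 233 of 237 macrophage UMIs, and 1, possibly the same cell, held 294 of 321 microglial UMIs. In primary cells, 1 cell held 209 of 329 oligodendrocyte UMIs. Macrophage genes summed to 101 CPM in relapsed and 74.9 CPM in primary cells with all cells, and to 1.78 and 21.2 CPM without the 12, which turned their order. Microglial genes summed to 137 and 229 CPM with all cells, and to 9.77 and 65.0 CPM without the 12. Oligodendrocyte genes summed to 35.9 and 196 CPM, and to 36.9 and 55.9 CPM without the 12. Endothelial genes summed to 3.85 and 20.8 CPM, and to 4.0 and 5.46 CPM without the 12. Pituitary genes summed to 13032 and 20.2 CPM, and to 223 and 20.6 CPM without the 12. Apart from the values without the 12 cells, their part in the differences was not tested.

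The promoters of Atoh1 and of Barhl1, a homeobox factor of the same precursors that was detected in 95.3% of relapsed and 88.1% of primary cells, are shown because Atoh1 defines these cells and Barhl1 is a factor outside the rule with the motif at both of its starts. Each sequence runs 5′ to 3′ from 250 bases before to 50 after a RefSeq start (GRCm38.p6), with capitals marking CAGCTG, a form of the E-box that bHLH factors bind.
Atoh1 (chr6:64728875-64729174, plus strand): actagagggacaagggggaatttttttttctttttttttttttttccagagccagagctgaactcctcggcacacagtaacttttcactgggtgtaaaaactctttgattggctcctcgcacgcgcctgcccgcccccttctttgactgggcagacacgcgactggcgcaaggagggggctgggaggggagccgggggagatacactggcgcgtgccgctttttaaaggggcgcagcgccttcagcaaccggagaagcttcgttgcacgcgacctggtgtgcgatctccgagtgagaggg
Barhl1, upstream start (chr2:28916619-28916918, minus strand): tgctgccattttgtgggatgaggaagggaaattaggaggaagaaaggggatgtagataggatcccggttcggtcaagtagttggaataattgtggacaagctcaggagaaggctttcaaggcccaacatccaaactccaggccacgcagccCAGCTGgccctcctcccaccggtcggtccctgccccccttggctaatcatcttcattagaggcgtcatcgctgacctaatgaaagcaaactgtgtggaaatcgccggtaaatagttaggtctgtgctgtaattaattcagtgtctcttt
Barhl1, downstream start (chr2:28912446-28912745, minus strand): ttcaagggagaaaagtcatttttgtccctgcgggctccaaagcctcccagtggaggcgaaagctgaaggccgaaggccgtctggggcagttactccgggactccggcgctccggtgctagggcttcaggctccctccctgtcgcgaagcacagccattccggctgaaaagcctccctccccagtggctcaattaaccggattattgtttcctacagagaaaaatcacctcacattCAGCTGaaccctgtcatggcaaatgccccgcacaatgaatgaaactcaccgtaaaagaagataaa
Both Barhl1 windows hold CAGCTG once, beginning 99 and 15 bases before the start, and the Atoh1 window does not hold it. The motif, the same on both strands, occurred at a start of 5 of 17 listed granule precursor factors found in the promoter table (Barhl1, Nfix, Nhlh2, Sox4 and Sox11; 29.4%), against 18.3% of 27025 genes. The Gli motif GACCACCCA, searched on both strands, occurred at 0 of 14 Hedgehog pathway genes found there and 0.289% of all genes. A match of letters is a description and not a binding site.

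Most of the cells held 1 or a few Atoh1 UMIs. A second UMI or more was present in 62.7% of relapsed cells (57.9 to 67.4) and 45.0% of primary cells (39.8 to 50.2), and the highest count was 14 in the relapsed and 8 in the primary library. Depth moved with this, since median UMIs were 5185 in relapsed and 4485 in primary cells, and the shallowest barcodes of the libraries held 3317 and 2216 UMIs. Median detected genes were 1934.5 and 1807, and mitochondrial UMIs were 3.57% and 3.65%. As the rule chose on Atoh1, these values describe the selection.

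**Figure D1:**
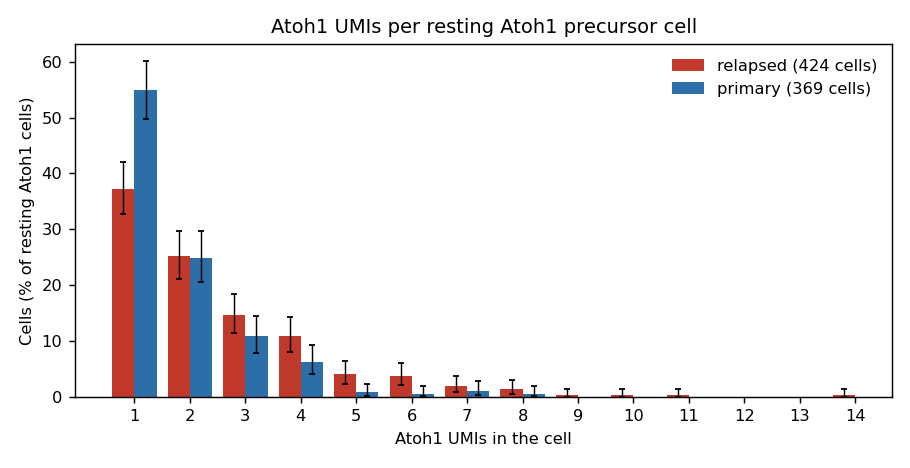
Share of resting Atoh1 cells by their number of Atoh1 UMIs, relapsed bars left of primary bars, with 95% exact binomial intervals. In the relapsed library 37.3% of the cells held a single UMI, against 55.0% in the primary library.

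Many cells lay just outside the thresholds, and their levels were close to those inside for some genes and limits but not for all. By the S phase limit alone, 94 relapsed and 82 primary cells fell just outside with 3 detected genes, and by the neuron limit alone 261 and 264 cells fell outside with 2. Mki67, a gene of cycling cells, stood at 77.0 CPM in relapsed cells with 2 G2/M genes and 83.4 CPM in those with 3, and at 48.2 and 95.9 CPM in the primary ones. Neurod1, which drives granule neuron differentiation, stood at 115 CPM in relapsed cells with 1 neuron gene and 162 CPM in those with 2. In the primary ones it stood at 111 and 120 CPM. By the Cntn2 limit alone, 48 relapsed and 64 primary cells fell outside with 1 UMI. Neurod1 stood there at 302 CPM (239 to 376) and 122 CPM (88.2 to 164). Between cells with 2 and 3 G2/M genes, Neurod1 went from 89.4 to 195 CPM in the relapsed library. In the primary library it went from 133 to 63.9 CPM.

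Resting Atoh1 cells made up 5.41% of relapsed cells (4.92 to 5.93) and 4.06% of primary cells (3.66 to 4.48). Of cells with an Atoh1 UMI, they made up 8.29% of 5117 relapsed (7.54 to 9.08) and 9.14% of 4038 primary cells (8.27 to 10.1), so the order of the libraries depended on the denominator. With every cell thinned to 2000 UMIs, which left out 0 cells, the rule took 14.2% of relapsed and 8.93% of primary cells. Because the rule allows only low counts, the shares depend on depth and on the sort, whose part was not tested.

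Across the transcriptome the relapsed and primary cells differed by 2-fold or more at 7.9% of the genes compared. Of 5357 genes with a mean of at least 20 CPM, 198 were at least 2-fold higher in relapsed cells (3.7%) and 225 at least 2-fold lower (4.2%), with a median log2 ratio of −0.08 over all of them. Of the same genes, 5.84% were past 2-fold in cycling Atoh1 cells, 6.38% in neuronal cells and 5.51% in all other cells together, whose sums hold more UMIs. Of the 198 higher genes, 197 had the same direction in cycling Atoh1 cells and 112 were past 2-fold there. Of the 225 lower genes, all 225 had the same direction there and 120 were past 2-fold. Without the 12 cells with foreign RNA, 189 of the 198 and 215 of the 225 stayed past 2-fold. The ratios in other cells come from the same libraries and are not independent of each other.

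Ratios were ranked among genes with a mean of at least 50 CPM and a UMI in at least 10% of cells. After the pituitary hormone genes, the highest in relapsed cells belonged to Sh3bp1, Dusp5 and Ngfr. Prm1, below that mean, had 155 UMIs in relapsed and 0 in primary cells. Ngfr, the p75 neurotrophin receptor (chromosome 11, 95568818–95587735 on mm10), was at 120 CPM in relapsed cells and 22.6 CPM in primary cells, a log2 ratio of 2.41 (1.92 to 2.94), with a UMI in 44.8% and 8.67% of cells. Dusp5, a phosphatase that switches off ERK kinase, was at 90.2 and 13.1 CPM (2.78, 2.15 to 3.49). Sh3bp1, a GTPase-activating protein for Rac that overlaps another annotated gene on its strand, was at 133 and 16.7 CPM (3.00, 2.44 to 3.61). Insig1, the sterol-regulated brake on cholesterol synthesis, was at 108 and 24.4 CPM (2.14), while the 12 other compared genes of cholesterol synthesis lay between −0.70 and 0.50. Cirbp, an RNA-binding protein induced by cold, was at 770 and 207 CPM (1.90). The mRNA export adaptor Alyref (2.28), the mitochondrial protein gene Mtch1 (2.28), the securin gene Pttg1 (1.97), Rassf3 (1.94), the O-fucosyltransferase gene Pofut2 (1.88), the parathymosin gene Ptms (1.87) and Rprml (1.79) were also among the 15 highest.

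Under the same limits, the genes lowest in relapsed cells included Ren1, which had few UMIs in any relapsed class. Ren1, which encodes renin, had 6 UMIs in relapsed cells and 399 in primary cells (2.56 and 237 CPM), a log2 ratio of −6.53 (−7.99 to −5.40). Mroh2a was at 30.3 and 544 CPM (−4.16). Miat, a long noncoding RNA of the nervous system, was at 18.8 and 112 CPM (−2.58), and Ramp2, a partner of the calcitonin-like receptor that overlaps Vps25 on its strand, at 16.7 and 83.9 CPM (−2.33). Gamt, the last enzyme of creatine synthesis, was at 60.7 and 236 CPM (−1.96). Pdzrn4 (−2.20), Btbd17 (−2.09), the calcium-binding protein gene S100a16 (−1.90), Banp (−1.89), Zmat5 (−1.76), Dpysl4 (−1.67), the deubiquitinase gene Josd2 (−1.60), Mphosph8 (−1.58), the splicing factor gene Zranb2 (−1.48) and the retinol carrier gene Rbp4 (−1.45) followed. Banp overlaps Gm20388 on its strand, and Zmat5 overlaps Cabp7 on the opposite strand.

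These extremes were shared with the other tumour cells of each library. All 15 higher genes were higher in relapsed cycling Atoh1 cells and in relapsed neuronal cells, 14 of them past 2-fold in each, and all 15 lower genes were lower in both, again 14 past 2-fold in each. Ngfr had a log2 ratio of 1.61 in cycling and 2.23 in neuronal cells, and Ren1 had −6.97 and −7.47. Without the 12 cells with foreign RNA, all 30 genes kept their direction and stayed past 2-fold. Prl was at 9901 CPM in relapsed and 0.595 CPM in primary cells with all cells, and at 114 and 0.607 CPM without the 12. Prl was present in 45.5% of relapsed resting Atoh1 cells and in 50.6% of relapsed neuronal cells.

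**Figure D2:**
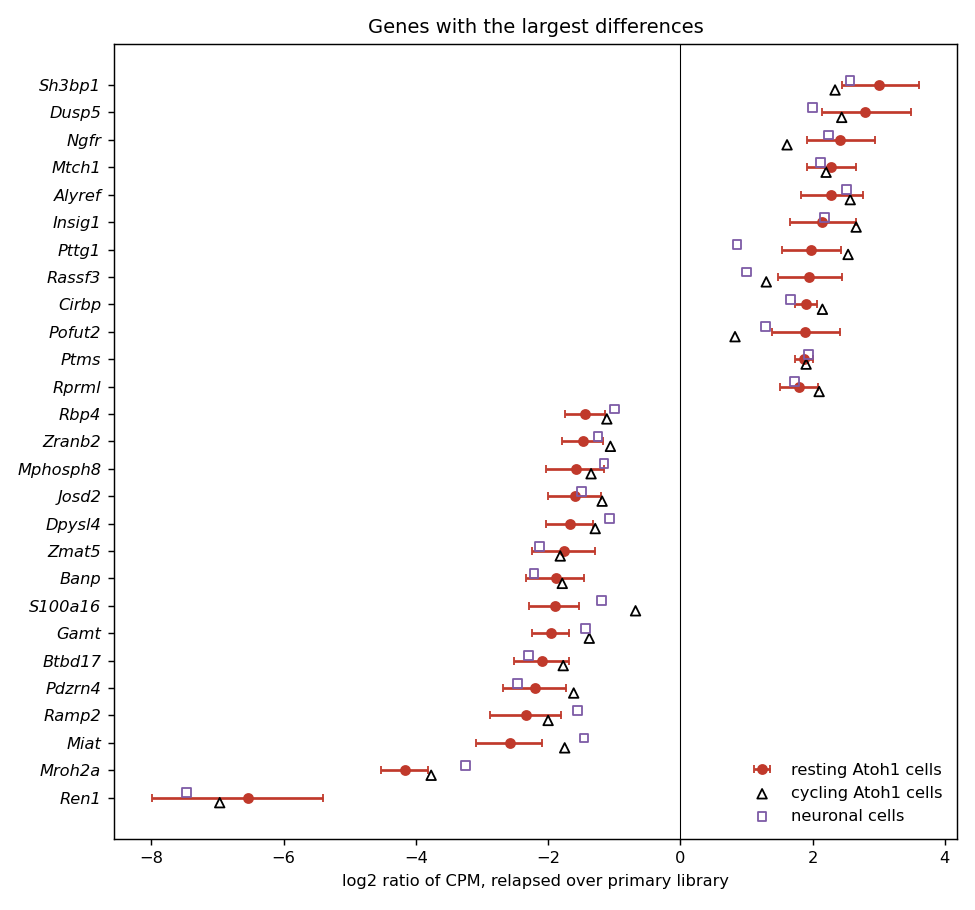
Log2 ratio of summed CPM, relapsed over primary library, for 27 of the genes with the largest differences, without Prl and Gh. Red points with 95% counting intervals are resting Atoh1 cells, and open triangles and squares are cycling Atoh1 and neuronal cells of the same libraries. Every gene lies on the same side of 0 in the 3 classes.

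Of 10 compared genes of the Hedgehog pathway, 1 was at least 2-fold higher in relapsed cells and 0 lower, against 7.9% of all genes past 2-fold, with a median log2 ratio of 0.18. That gene was Gas1, a co-receptor that helps Sonic hedgehog bind Patched 1, at 101 CPM in relapsed and 38.1 CPM in primary cells (1.41, 1.01 to 1.83). Its ratio was 1.37 in cycling Atoh1 cells. Boc, another co-receptor, was at 65.4 and 42.8 CPM (0.61, 0.20 to 1.04), and Smo, the signal transducer, at 97.8 and 56.5 CPM (0.79, 0.44 to 1.15). The target and receptor gene Ptch1 was at 170 CPM in relapsed and 143 CPM in primary cells (0.25, 0.02 to 0.49). Whole-gene counts give no check of the Patched 1 deficiency itself. Gli1, effector and target, had 50 UMIs in relapsed and 48 in primary cells (21.4 and 28.5 CPM; −0.42, −1.02 to 0.18), and Gli2, below the level for comparison, had 39 and 34 (16.7 and 20.2 CPM). Sufu, the cytosolic brake on Gli factors, was at 16.7 and 26.8 CPM (−0.68, −1.34 to −0.03). The growth targets Ccnd1 (370 and 345 CPM) and Mycn (308 and 387 CPM) lay within 2-fold.

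Of 18 compared transcription factors of granule precursors, 1 was past 2-fold, a share near the 7.9% of all genes, and the median log2 ratio was −0.04. Sox4, an SRY-box factor of committed progenitors, was at 578 CPM in relapsed and 213 CPM in primary cells (1.44, 1.27 to 1.61), and its ratio in cycling Atoh1 cells was 1.5. Its relative Sox11 was at 520 and 568 CPM (−0.13). Insm1, a zinc finger factor of dividing neuronal progenitors, was at 214 and 115 CPM (0.89, 0.65 to 1.14). Barhl1 was at 772 and 595 CPM (0.38), Pax6 at 133 and 178 CPM (−0.43) and Zic1 at 388 and 467 CPM (−0.27). Zic4, at 136 and 245 CPM, had the lowest ratio of the list (−0.85), and the nuclear factor I genes Nfia and Nfib, at 1042 and 1019 CPM in relapsed cells and 1091 and 1191 CPM in primary cells, were among the most abundant.

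Regulators of the step from G1 into S phase diverged one by one. Of 19 compared genes, 4 were at least 2-fold higher in relapsed cells and 1 was lower, against 3.7% and 4.2% of all genes. The median log2 ratio was −0.12. The inhibitor gene Cdkn1a (p21) was at 94 CPM in relapsed and 30.9 CPM in primary cells (1.60, 1.16 to 2.07), with a UMI in 22.4% and 11.1% of cells, or 14.4% and 5.42% at 2000 UMIs. Its ratio was 0.43 in cycling Atoh1 cells and 1.34 (1.12 to 1.57) in neuronal cells. In cells without an Atoh1 UMI that met the rest of the rule it was 1.55 (1.25 to 1.86). Differences between classes were not tested. Cdkn2a, the locus of p16 and p19Arf, was at 72.6 and 13.7 CPM (2.41, 1.78 to 3.11), E2f1, which turns on S phase genes, at 51.3 and 12.5 CPM (2.04, 1.36 to 2.78), and Myc at 47.9 and 19 CPM (1.33, 0.75 to 1.95). Cdk2, the kinase partner of cyclin E, had 29 UMIs in relapsed and 49 in primary cells (12.4 and 29.1 CPM; −1.23). Cdkn2a, E2f1, Myc and Cdk2 are named after their values were seen. D-type cyclin genes and Cdkn1b (p27) differed less, with 1230 and 1495 CPM for Ccnd2 and 91.4 and 79.7 CPM for Cdkn1b. Of 10 compared p53 target genes only Cdkn1a was past 2-fold, against 7.9% of all genes, and Mdm2 stood at 53 and 52.3 CPM.

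Of 11 compared G2/M genes outside the rule, 2 were at least 2-fold higher in relapsed cells and 0 lower, against 3.7% and 4.2% of all genes, with a median log2 ratio of 0.47, against −0.06 for the same genes in cycling Atoh1 cells. Cdca3, which promotes degradation of the mitosis inhibitor Wee1, was at 103 CPM in relapsed and 37.5 CPM in primary cells (1.45), and the kinetochore motor gene Cenpe at 31.2 and 14.3 CPM (1.13, 0.45 to 1.86). With 0 UMIs of the cycle, neuron and Gfap genes allowed, which left few cells, the ratio of Cenpe was −1.31. Mki67 was at 41.4 and 29.7 CPM (0.48, −0.03 to 1.00). S phase genes outside the rule had 0 of 18 past 2-fold and a median of −0.13. Since the rule limits how many cycle genes a cell may show, these levels are partly set by it and by depth.

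Genes of neuronal differentiation were mixed. Of 20 compared, 2 were at least 2-fold higher in relapsed cells and 1 lower, against 3.7% and 4.2% of all genes. Their median log2 ratio was −0.20. Reln, the secreted guide of neuronal migration, was at 29.5 CPM in relapsed and 77.3 CPM in primary cells (−1.39, −1.83 to −0.96). The neuronal tubulin gene Tubb3 was at 391 and 720 CPM (−0.88) and Stmn2, a microtubule regulator of growing axons, at 420 and 646 CPM (−0.62), while Neurod1 was level at 113 and 111 CPM. Rbfox1, a splicing regulator of neurons, was at 32.9 and 14.9 CPM (1.15). Chgb, a secretory granule protein also made by pituitary cells, was at 117 and 36.9 CPM (1.66) with all cells and at 35.1 and 36.4 CPM without the 12 cells with foreign RNA, a log2 ratio of −0.05.

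Among the remaining pathways, single genes of secreted signals were past 2-fold, against 7.9% of all genes. Wnt4, a Wnt ligand, had 117 UMIs in relapsed and 18 in primary cells (log2 ratio 2.22, 1.5 to 3.03), the only gene past 2-fold of 7 compared in its pathway. Sfrp1 and Sfrp2, secreted Wnt inhibitors, were at 1169 and 828 CPM (0.50) and at 55.1 and 105 CPM (−0.93). Of 8 BMP and TGF-beta genes, Bmp5 was higher (38.5 and 11.3 CPM; 1.77), the ligand gene Tgfb2 lower (42.3 and 111 CPM; −1.39), and the BMP target Id2 was at 546 and 314 CPM (0.80). Of 6 Notch genes 0 were past 2-fold, with the effector Hey1 at 208 CPM in relapsed and 346 CPM in primary cells (−0.73). Igfbpl1, an IGF-binding protein-like gene of neural progenitors, was at 517 and 1069 CPM (−1.05). Ratios in cycling Atoh1 cells were 2.21 for Wnt4, 1.66 for Bmp5, −1.16 for Tgfb2 and −0.73 for Igfbpl1.

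In the stem, glial and adhesion lists, 1 of 11 and 2 of 10 genes were past 2-fold, against 7.9% of all genes. Olig2, a bHLH factor of glial progenitors, was at 38.0 CPM in relapsed and 13.1 CPM in primary cells (1.54), the only one of 11 stem and glial progenitor genes past 2-fold. Olig1 was at 40.6 and 73.1 CPM (−0.85). Pdgfra, a growth factor receptor gene of glial progenitors and fibroblasts named after its value was seen, was at 91.0 and 40.4 CPM (1.17). The proteoglycan gene Sdc2 (64.5 and 30.9 CPM; 1.06) and the cadherin gene Cdh4 (43.2 and 20.8 CPM; 1.05) were higher among 10 adhesion and matrix genes, while 0 of 7 axon guidance genes were past 2-fold. Hoxb2, a hindbrain patterning factor, had 0 UMIs in relapsed and 91 in primary cells, at least 42.2-fold lower in relapsed cells against a floor of 3 UMIs in the relapsed sum. In all other relapsed cells together it had 1 UMI, against 1907 in all other primary cells.

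Immediate early genes, which dissociation can induce, had 3 of 12 compared genes at least 2-fold higher in relapsed cells, against 3.7% of all genes. Their median log2 ratio was 0.54. Jund was at 464 CPM in relapsed and 182 CPM in primary cells (1.35), Socs3 at 60.7 and 25 CPM (1.28) and Fos at 41.4 and 19 CPM, with a UMI in 5.19% and 3.52% of cells. Without the 12 cells with foreign RNA, Fos was at 19.5 and 8.5 CPM. The median of this list was 0.20 in cycling Atoh1 cells, 0.68 in neuronal cells and 0.44 in all other cells together. The part of tissue handling was not tested.

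Housekeeping groups differed little. Of 82 cytosolic ribosomal protein genes 0 were past 2-fold (median 0.02), as were 0 of 74 nuclear oxidative phosphorylation genes (median −0.07) and 0 of 17 chromatin regulators (median 0.07). In glycolysis and hypoxia, 1 of 12 genes was past 2-fold, against 7.9% of all genes. That gene was Bnip3, at 29.9 CPM in relapsed and 13.7 CPM in primary cells (1.13). Without the 12 cells with foreign RNA, Bnip3 was at 22.2 and 13.4 CPM (0.73, −0.02 to 1.53), no longer past 2-fold. Gapdh was at 3025 and 1527 CPM (0.99), and without the 12 at 3086 and 1539 CPM (1.00). Of 3 antigen presentation genes, H2-D1 was past it at 77.8 and 28 CPM (1.48), and of 12 mitochondrially encoded genes, mt-Nd4l was, at 185 and 70.2 CPM (1.40), a gene that overlaps mt-Nd4. The 1 interferon gene compared, Ifi27, was at 13.7 and 32.7 CPM (−1.26).

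**Figure D3:**
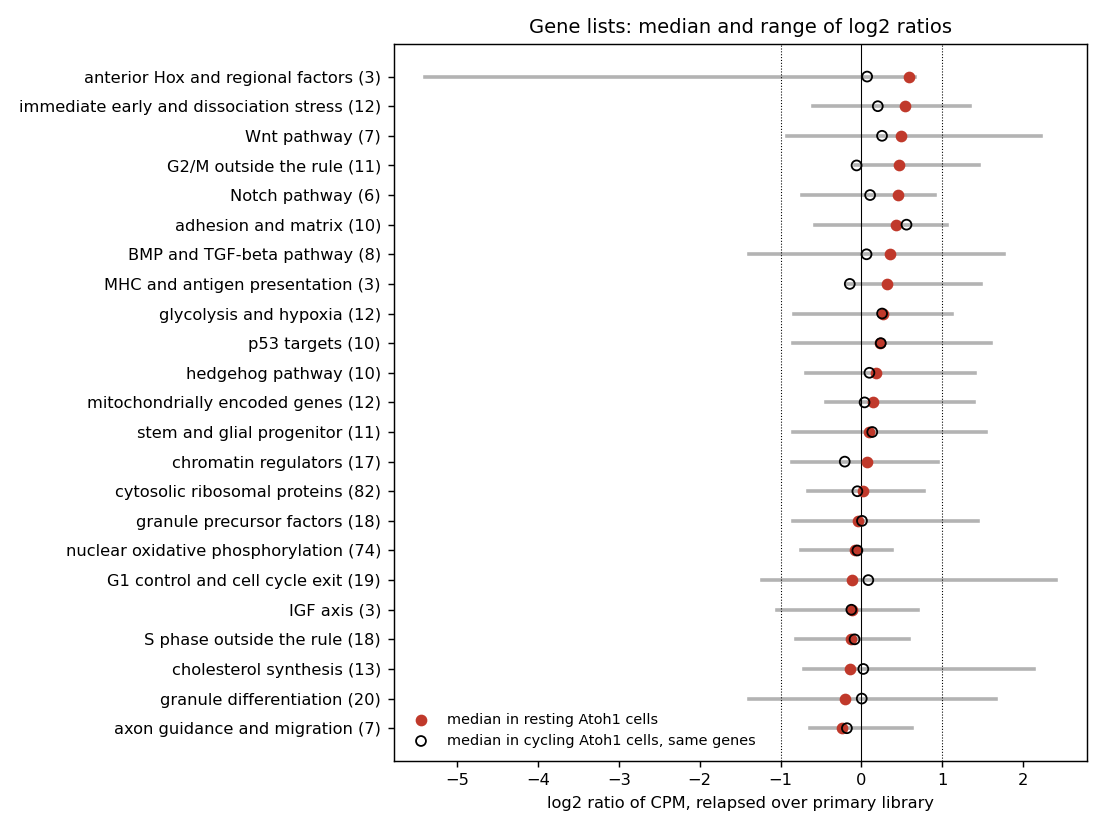
Median (red) and range (grey) of log2 ratios of summed CPM, relapsed over primary library, for lists with at least 3 compared genes in resting Atoh1 cells, with the median of the same genes in cycling Atoh1 cells as open circles. Dotted lines mark 2-fold. All list medians lie within 2-fold, with −0.04 for granule precursor factors and 0.54 for immediate early genes.

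Compared with cycling Atoh1 cells of the same library, resting Atoh1 cells had lower levels of the replication and mitosis genes, on whose relatives they were chosen. Of the 5357 genes, 23 were at least 2-fold higher in resting cells in both libraries (0.429%) and 92 were lower (1.72%). All 11 G2/M and 15 of 18 S phase genes outside the rule were lower in both, with median log2 ratios of −1.84 and −1.83 in the relapsed and −2.67 and −1.55 in the primary library. Of genes outside those lists, the condensin subunit gene Smc2 was at 97.8 CPM in relapsed resting cells against 616 CPM in relapsed cycling cells, and at 105 against 543 CPM in the primary library. Tuba1b, Tubb4b, H2afx, Cks2, Arl6ip1, Racgap1, Tmpo, Lmnb1 and Rad21, mostly genes of the spindle, chromosomes and nuclear envelope, had log2 ratios between −1.35 and −2.74. These ratios use cells chosen on related genes and are given as a description.

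The genes with the highest ratios of resting over cycling Atoh1 cells follow. Mxd4, a Max partner that opposes Myc, was at 74.3 CPM in relapsed resting cells against 36.8 CPM in relapsed cycling cells, and at 76.1 against 36.9 CPM in the primary library. Ddit4, a stress-induced inhibitor of mTORC1, was at 152 against 72.4 CPM and at 154 against 43.6 CPM. Kdm6b, a demethylase of histone H3 lysine 27, was at 65.8 against 30.3 CPM and at 108 against 42.8 CPM. Aldoa, Dlgap4, Nap1l5 and Mt1 had log2 ratios between 0.81 and 1.63. Sepp1, which encodes a selenium carrier, was at 85.5 against 31.3 CPM in the relapsed and 63.6 against 33.8 CPM in the primary library, and without the 12 cells with foreign RNA the resting cells held 52.4 and 31.0 CPM. Of these, Mxd4, Ddit4 and Kdm6b were past 2-fold in both libraries. Against neuronal cells the same genes lay within 2-fold. Their log2 ratios there, relapsed then primary library, were −0.29 and −0.22 for Mxd4, 0.09 and 0.18 for Ddit4, and −0.17 and −0.02 for Kdm6b. Prl, made by pituitary cells, passed 2-fold over cycling cells in the primary library on 1 UMI. Pcsk1n, made by pituitary cells too, was at 137 CPM in relapsed and 47.0 CPM in primary resting cells with all cells, and at 22.6 and 44.9 CPM without the 12, against 29.6 and 17.1 CPM in cycling cells.

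Hedgehog genes were on median higher in resting Atoh1 cells than in neuronal cells, and close to their level in cycling cells. Against neuronal cells, the median log2 ratio over Hedgehog genes was 0.95 in the relapsed and 0.60 in the primary library, with 3 of 10 genes at least 2-fold higher in both, against 0.672% of all genes. Against cycling cells the medians were −0.11 and −0.16, with 0 genes past 2-fold in both. Gli1 was higher than in neuronal cells but lower than in cycling cells, with log2 ratios over cycling cells of −0.84 and −0.77. It was at 21.4 CPM in relapsed resting, 38.1 CPM in relapsed cycling and 6.75 CPM in relapsed neuronal cells. In the primary library these levels were 28.5, 48.8 and 13.7 CPM. Ccnd1 was at 370 CPM in relapsed resting and 164 CPM in relapsed neuronal cells, and at 345 and 155 CPM in the primary library. Cycle genes outside the rule were on median higher in resting Atoh1 than in neuronal cells, although both were held to the same cycle limits. For G2/M genes the median log2 ratio was 1.27 in the relapsed and 0.76 in the primary library, with 4 of 11 at least 2-fold higher in both. For S phase genes it was 0.51 and 0.53, with 0 of 18 past 2-fold in both. Of the differentiation genes, 12 of 20 were at least 2-fold lower than in neuronal cells in both libraries (1.96% of all genes). Resting and neuronal cells were chosen by neuron genes, so these ratios are a description. Neurod1 was at 113 CPM in relapsed resting and 750 CPM in relapsed neuronal cells, and at 111 and 645 CPM in the primary library. Zic1 was lower too, at 388 and 817 CPM in the relapsed and 467 and 870 CPM in the primary library.

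**Figure D4:**
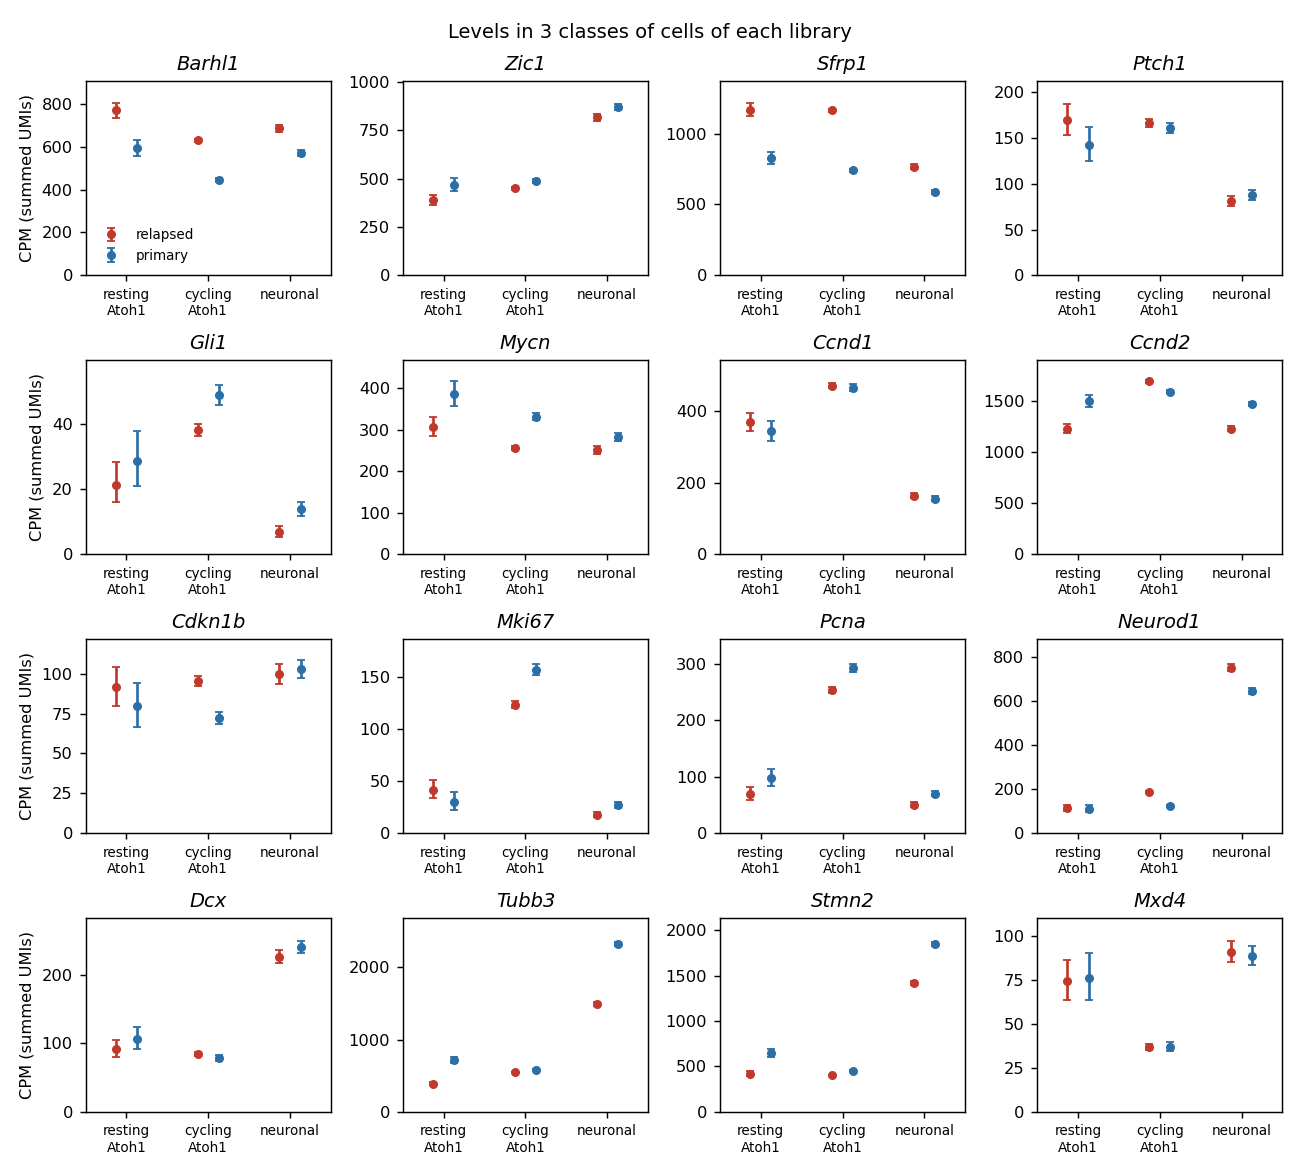
Summed CPM with 95% Poisson intervals for 16 genes in resting Atoh1, cycling Atoh1 and neuronal cells, relapsed library (red) left of the primary library (blue). Ptch1, Gli1 and Ccnd1 are lower in neuronal cells than in resting Atoh1 cells, Mki67 and Pcna are highest in cycling cells, and Neurod1, Dcx, Tubb3 and Stmn2 are highest in neuronal cells.

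The cells varied among themselves mainly in RNA of other cell types and in a few abundant genes. With each cell thinned to 2000 UMIs, the Fano factor (variance over mean, 1 for pure counting noise) had a median of 1.03 over 2677 genes in relapsed and 1.03 over 2800 genes in primary cells. Prl (868) and Gh (684) led in relapsed cells, followed by the macrophage gene Lyz2 (33.0) and Apoe (32.7), and Apoe (26.5) led in primary cells, followed by the nuclear RNA Malat1 (21.1). Without the 12 cells with foreign RNA, Apoe was at 3.58 in relapsed cells, and the highest were Malat1 (15.1 in relapsed, 18.9 in primary cells) and Actb (9.44 and 7.47). Next came Hmgb2, a chromatin protein gene of dividing cells, in relapsed cells (4.09), and Olig1 (5.37), S100a16 (5.06) and Ren1 (4.06) in primary cells. Olig1 was found in 6.35% of thinned primary cells, S100a16 in 13% and Ren1 in 14.6%.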

How the data were processed

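Single cells of 1 relapsed and 1 primary tumour were analysed. The authors deposited UMI counts as whole numbers for every gene in every cell, with 69403567 UMIs in the relapsed and 56332247 in the primary library. Per the submitters' processing notes, Cell Ranger, STAR, Seurat and mm10 were used, without version, role or order. Whether counting used strand is not given in the sources used here, so overlapping genes cannot be told apart. Not every overlap is marked in the text, and Neurod1, for example, overlaps Cerkl on its strand. The bulk tables, deposited by the authors, were not used here.

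Cells were selected as described in the report from the deposited counts, with scipy 1.17.1 and pandas 2.3.3 in python 3.11.15, and UMIs were summed per class and library and scaled to CPM. Cycling Atoh1 cells have an Atoh1 UMI, at most 1 Gfap UMI and more than 2 genes of either cycle list, and neuronal cells at least 2 of the 6 neuron genes and at most 2 of each cycle list. Genes of the rule were left out of comparisons. Log2 ratios carry exact binomial intervals, levels exact Poisson and shares exact Clopper-Pearson intervals (95%). A sum of 0 was set to 3 UMIs. The libraries shared 93 barcodes, 2 of them in the set in both. Doublets were kept, and an alternative left out the 6% highest Scrublet scores per library (scanpy 1.11.5). Ratios were tested on simulated data. Coordinates are from GENCODE M21.

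Members, lists and markers were chosen with earlier results of these data known. Named genes are the 15 highest and 15 lowest ratios at a mean of at least 50 CPM and a UMI in at least 10% of cells, the 10 most different from cycling cells each way, the 10 highest Fano factors per library, listed genes past 2-fold or with the 2 largest changes, and 12 genes named whatever their values. Of these, 1 gene is counted but not reported here. Alternatives are in the closing section.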

Additional observations from a re-analysis of the deposited data

Results flagged for a closer look

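Cenpe, the kinetochore motor gene, went opposite ways in 2 classes of the same libraries. Its log2 ratio, relapsed over primary, was 1.13 in resting Atoh1 cells (73 UMIs in relapsed and 24 in primary cells) and −0.47 in cycling Atoh1 cells (77.8 CPM in relapsed and 108 CPM in primary cells). With 1 library per condition the difference was not tested.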

How the results depend on the processing

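No paired analysis was possible because each condition has 1 library. Shares of resting Atoh1 cells moved to 3.39% in the relapsed and 1.83% in the primary library with at least 2 Atoh1 UMIs, to 14.2% and 8.93% with cells thinned to 2000 UMIs, and to 0.344% and 0.165% with 0 UMIs of the cycle, neuron and Gfap genes. Under that last rule, which left 27 and 15 cells, 718 genes were at least 2-fold higher and 1036 lower, and with a mean of at least 5 CPM 518 were higher and 724 lower. Setting the median gene ratio to 0 gave 240 higher and 187 lower genes. Under the rule with 0 UMIs the sign turned for Alyref (−0.084), Bnip3 (−0.89), Cdh4 (−0.31), Cenpe (−1.31), Chgb (−0.14), Olig2 (−0.31), Pcsk1n (−1.31), Reln (0.015), S100a16 (0.69) and Socs3 (−0.72), with few UMIs behind each. Hoxb2 (0.28) and Prm1 (−0.57) are counted as turned too, but their signs come from setting a sum of 0 to 3 UMIs. Hoxb2 had 0 UMIs in relapsed and Prm1 0 in primary resting Atoh1 cells, so these values give no direction. Without the 12 cells with foreign RNA, an alternative chosen after seeing the data, Chgb (−0.054) and Pcsk1n (−0.99) turned. Lyz2 (−4.50) and Ctsb (−0.15) changed sign there too, from values whose counting intervals included 0, and are not counted as turned. Of all alternative values of named genes, 916 stayed within their counting interval, 180 moved and 14 turned. List medians kept their sign and their side of 2-fold in 212 of 237 cases. Leaving out doublet calls, cells under 1000 genes or cells over 5% mitochondrial UMIs left both shares within the counting interval of the reported share and both gene counts within 1.5 times.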

Other observations

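Prm1, a protamine gene of sperm, had 155 UMIs in relapsed resting Atoh1 cells and 0 in primary ones. It stood at 66.2 CPM in relapsed resting Atoh1 cells, 63.3 CPM in relapsed cycling Atoh1 cells, 133 CPM in relapsed neuronal cells and 270 CPM in all other relapsed cells together, and at 0 UMIs in each primary class. Its Fano factor among relapsed resting Atoh1 cells was 3.95 at 2000 UMIs, and it was found in 6.60% of them.

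Resting cells without an Atoh1 UMI that met the rest of the rule numbered 277 in the relapsed and 786 in the primary library. At least 3 of the 8 granule genes were found in 54.5% and 49.1% of them. Of the relapsed ones, 101 held Xist and 111 a Y-linked UMI.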
